A study of Homo sapiens with 2 samples.

Results

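The SOXB and SOXC factors are transcription factors that share the HMG box, a DNA-binding domain, with the other products of the SOX gene family. The genes described here were chosen by symbol: SOX1, SOX2, SOX3 and SOX21 for SOXB, and SOX4 and SOX11 for SOXC, which are 6 of the 33538 genes counted. Each was found in both libraries. Transcripts had been counted in single cells of H1, an established human embryonic stem cell (hESC) line, after 48 h of bone morphogenetic protein 4 (BMP4; 50 ng/ml in mTeSR1 medium), a signal that drives these cells out of pluripotency. The library labelled WT came from unmodified H1 cells. The library labelled GATA3 KO came from KO-GATA3-06, a single clone in which GATA3, a transcription factor, had been targeted with SpCas9. That clone was derived from an H1 line with an integrated doxycycline-inducible SpCas9 cassette, so clone, cassette and genotype cannot be told apart. Cells of these libraries are called WT cells and KO cells below, after their labels.

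SOXB1 proteins are transcriptional activators that hold cells in an undifferentiated state, and SOX2 acts together with POU5F1 and NANOG in pluripotent cells. SOX1 and SOX3 are best known from the early neural ectoderm, where SOX2 is also present. SOX21, of the SOXB2 group, is a repressor that counteracts SOXB1 proteins in neural progenitors. SOX4 and SOX11 are activators known from neuronal and mesenchymal progenitors and from many embryonic tissues.

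The deposited libraries held 3802 WT cells and 6221 KO cells, of which 1012 and 1265 had more than 7500 detected genes. After cells with more than 7500 detected genes or more than 25% mitochondrial counts were removed, 2519 WT cells and 4450 KO cells remained. They held 99587274 and 175285931 unique molecular identifiers (UMIs), each the count of one captured transcript, with medians of 44415 and 43131.5 per cell. Levels are UMIs summed over cells per 1000000 UMIs (CPM). For per-cell values, 10000 UMIs were drawn at random from each cell. This thinning left 2173 and 4038 cells and dropped 346 and 412 shallower ones. There was 1 library for each label, so nothing was tested, and every interval given is a 95% interval of counting error alone. All 5 listed markers of the primitive streak, MIXL1, EOMES, TBXT, MESP1 and GSC, were at least 2-fold lower in KO cells. Of the 13523 genes that reached 1 CPM in either library, 2.27% were lower by that much. The paper already describes MIXL1, EOMES and GSC as compromised in KO cells from these same libraries. The marker levels are therefore not an independent check of the labels. The GATA3 transcript itself, counted at its 3′ end, was at 12.7 CPM in WT cells and 10.9 CPM in KO cells and does not check the labels. The libraries shared 8 cell barcodes, 5 of them among the kept cells.

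All 6 genes have a single exon in the GENCODE annotation of GRCh38. SOX2 (ENSG00000181449, chr3:181711925-181714436, plus strand) lies within the non-coding gene SOX2-OT on the same strand. SOX2-OT was not among the genes counted, so whether the SOX2 count holds reads of SOX2-OT could not be examined. SOX3 (ENSG00000134595, chrX:140502985-140505069, minus strand) overlaps no other annotated gene. SOX1 (ENSG00000182968, chr13:112067149-112071706, plus strand) lies within SOX1-OT, for which no UMI was counted in a kept cell of either library. SOX21 (ENSG00000125285, chr13:94709622-94712545, minus strand) overlaps SOX21-AS1 on the opposite strand. SOX4 (ENSG00000124766, chr6:21593751-21598619, plus strand) and SOX11 (ENSG00000176887, chr2:5692384-5701385, plus strand) each overlap one unnamed annotated gene.

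SOX2 and SOX3 were the members that differed most between the libraries, and their promoters are shown for that reason. RefSeq promoter sequence was found for 5 of the 6 genes, all but SOX11. The 250 bases before each start are given 5′ to 3′ on the strand of the gene in GRCh38.p14, chr3:181711675-181711924 for SOX2 and chrX:140505070-140505319 for SOX3. Capitals mark CCAAT or its reverse complement ATTGG, the box bound by the general factor NF-Y.
SOX2: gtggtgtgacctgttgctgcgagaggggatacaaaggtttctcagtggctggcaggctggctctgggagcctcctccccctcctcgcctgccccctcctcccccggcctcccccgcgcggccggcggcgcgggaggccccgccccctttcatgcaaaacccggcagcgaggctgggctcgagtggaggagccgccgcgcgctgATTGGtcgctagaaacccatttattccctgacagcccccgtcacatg
SOX3: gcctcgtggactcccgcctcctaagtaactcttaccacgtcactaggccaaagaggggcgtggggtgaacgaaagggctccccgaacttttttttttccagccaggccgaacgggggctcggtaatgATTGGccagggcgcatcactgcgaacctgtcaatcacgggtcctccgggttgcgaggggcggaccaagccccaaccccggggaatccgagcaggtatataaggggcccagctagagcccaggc
The box begins 47 bases before the start of SOX2 and 123 bases before the start of SOX3. SOX21 had 1 such match, 214 bases before its start. SOX4 had 4, at 181, 114, 57 and 10 bases, and SOX1 had none. On either strand, 32.0% of 35116 promoter windows of the same length held this motif. The match is therefore common, and it describes letters in these windows, not binding.

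SOX2 was more abundant in KO cells. WT cells held 149.5 CPM (147 to 152) and KO cells 389 CPM (386 to 391), a 2.60-fold difference. The log2 ratio, taken here and throughout after 1 CPM had been added to each level, was 1.37 (1.35 to 1.40). SOX3 had the largest ratio among the members, with 5.37 CPM (4.93 to 5.85) in WT and 20.4 CPM (19.7 to 21.1) in KO cells. Its log2 ratio was 1.75 (1.63 to 1.86). For both genes the intervals of the libraries lay far apart.

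SOX1 was at the limit of what was counted. It had 3 UMIs in all kept WT cells and 7 in KO cells, which is 0.0301 CPM (0.00621 to 0.0880) against 0.0399 CPM (0.0161 to 0.0823). A difference was not detectable at this depth. The SOXB1 pattern therefore rested on SOX2 and SOX3 alone.

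SOX21, the SOXB2 repressor, was scarce in both libraries. There were 123 UMIs in WT cells and 377 in KO cells, or 1.24 CPM (1.03 to 1.47) against 2.15 CPM (1.94 to 2.38). The log2 ratio of 0.50 (0.32 to 0.67) stayed under 2-fold, and without the added 1 CPM the level was 1.74-fold higher in KO cells. The opposite-strand neighbour SOX21-AS1 was counted at 0.532 CPM and 0.696 CPM, with a log2 ratio of 0.15 (-0.03 to 0.32).

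The SOXC genes showed no rise of that kind. WT cells held 467 CPM (462 to 471) of SOX4 and KO cells 405 CPM (402 to 408). Its log2 ratio was -0.20 (-0.22 to -0.19). For SOX11 the values were 87.9 CPM (86.1 to 89.8) against 88.4 CPM (87.0 to 89.8), and the log2 ratio 0.01 (-0.03 to 0.04). SOX4 was thus slightly lower in KO cells, and the difference in SOX11 lay within counting error.

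**Figure D1:**
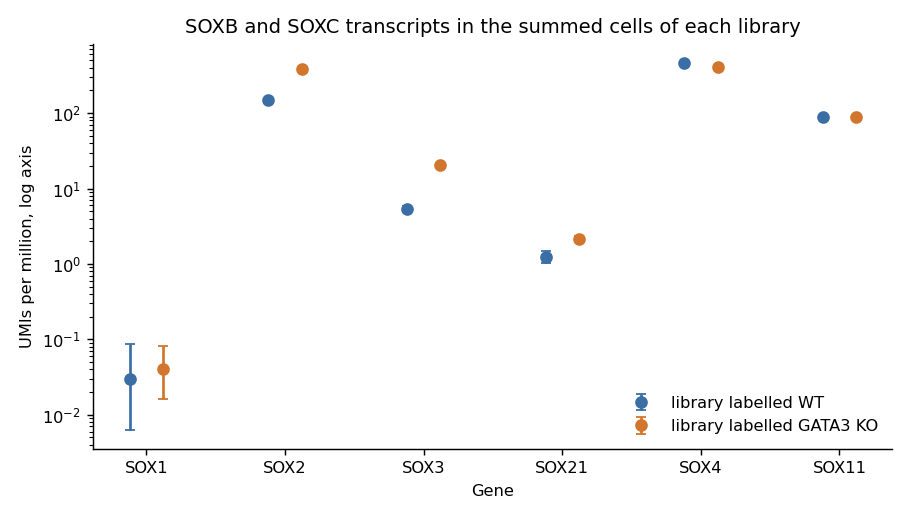
Level of each SOXB and SOXC gene in CPM (UMIs per 1000000, log axis) in the summed kept cells of the WT library (blue) and the KO library (orange). Points are 1 library each and bars are exact Poisson 95% intervals of counting error. SOX2 rises from 149.5 to 389 and SOX3 from 5.37 to 20.4, whereas SOX4 and SOX11 differ little and SOX1 is under 0.1 in both.

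Of the 6 members, 5 reached 1 CPM in the higher library, all but SOX1. A ratio of at least 2-fold was reached by 2 of these 5 in favour of KO cells and by 0 in favour of WT cells. Over all 13523 genes of at least 1 CPM, 2.06% were at least 2-fold higher and 2.27% at least 2-fold lower in KO cells. The median log2 ratio was 0.50 over the 5 members and 0.07 over all those genes. A share of a list this short moves in large steps, so the values of the single genes carry the comparison.

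Other SOX genes were mixed. Of 13 listed, 8 reached 1 CPM, and 1 was at least 2-fold higher and 2 at least 2-fold lower in KO cells. SOX12 of the SOXC group and SOX14 of the SOXB2 group were counted here and not among the members. SOX12 stood at 14.1 CPM in WT and 14.7 CPM in KO cells, and SOX14 at 0.12 and 0.086 CPM. SOX9, a SOXE gene of cartilage and neural crest, had the highest log2 ratio at 1.33 (1.18 to 1.47), followed by SOX13 at 0.61. SOX17, a definitive endoderm regulator, was the lowest at -3.32 (-3.40 to -3.22), with 10.6 CPM in WT cells and 0.160 CPM in KO cells. SOX18, of the same SOXF group, had a log2 ratio of -1.12. SOX17 and SOX18 thus lay on the opposite side from SOX2 and SOX3, and SOX7, another SOXF gene, under 1 CPM in both libraries, did not, at 0.28 (0.10 to 0.45).

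The partners of SOX2 in pluripotent cells did not share one direction. NANOG stood at 75.6 CPM in WT cells and 55.7 CPM in KO cells, a log2 ratio of -0.44 (-0.48 to -0.39), opposite in sign to SOX2. POU5F1 went from 918 to 1480 CPM, a log2 ratio of 0.69 (0.68 to 0.70). Of 14 listed pluripotency genes, 2 were at least 2-fold higher, PRDM14 (1.49) and UTF1 (1.40), and 2 at least 2-fold lower, FGF4 (-3.04) and LEFTY1 (-1.44). The median log2 ratio of the 14 was 0.10. Over all genes of at least 1 CPM, 2.06% were at least 2-fold higher and 2.27% at least 2-fold lower.

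Of 19 early neural ectoderm genes, the setting in which SOXB genes are also known, 9 reached 1 CPM. Of these, 4 were at least 2-fold higher in KO cells, against 2.06% of all genes of at least 1 CPM. The list was chosen with earlier results of these data known. NPTX1, a secreted pentraxin, had the highest log2 ratio at 1.64, and IRX2, a homeobox factor, followed at 1.26. CDH2, which encodes N-cadherin, was the 1 gene at least 2-fold lower, at -1.33, and ZIC2, a zinc-finger factor, had the next lowest ratio at -0.22. PAX6, a defining factor of the neural ectoderm, had only 8 UMIs in WT cells and 27 in KO cells, or 0.0803 and 0.154 CPM. Its log2 ratio was 0.10 (-0.03 to 0.19), held near 0 by the added 1 CPM, so the level is too low to compare. Of the 6 genes listed as linked to SOXC factors, 3 reached 1 CPM and none of them was 2-fold different. TEAD2 (0.66) and DCX (0.06) had the highest log2 ratios and TUBB3 (-0.35) the lowest.

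Within the libraries, SOX2 varied strongly from cell to cell. In thinned WT cells the median was 1 UMI, the 90th percentile 4 and the highest value 14. In KO cells they were 4, 8 and 18 UMIs. SOX2 was found in 54.7% (52.6 to 56.8) of WT cells and 86.5% (85.4 to 87.6) of KO cells, against 66.7% and 89.8% without thinning. Shares without thinning, here and below, are over all kept cells, the shallower ones included. The whole distribution was thus displaced, not its upper end alone. Cells without a SOX2 UMI made up 45.3% of WT cells and 13.5% of KO cells, and cells with 6 or more made up 4.79% and 26.8%. The variance was 2.54 times the mean in WT cells and 2.20 times the mean in KO cells, whereas sampling from a level shared by all cells would give a ratio of 1.

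Free RNA can give UMIs in cells that do not express a gene. The 35 thinned WT cells with 2 or more UMIs of SOX17 were used to bound this for SOX2. SOX17 marks definitive endoderm, where little SOX2 is expected, but the identity of these cells was not tested. SOX2 was found in 1 of them (2.86%) and stood at 1.71 CPM over their UMIs, at a median depth of 49924 UMIs per cell. That is far under the 54.7% over all cells of the library, whose median depth was 47122. With 1 of 35 cells, the share is only a loose bound. Only 1 KO cell met the same criterion, so the level there was not measured.

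SOX3 and SOX21 were sparse. SOX3 was found in 5.75% (4.81 to 6.82) of thinned WT cells and 16.7% (15.6 to 17.9) of KO cells, and in 15.7% and 42.4% without thinning. SOX21 was found in 1.15% (0.746 to 1.69) and 2.20% (1.77 to 2.71), and in 3.69% and 6.49% without thinning. With a second random draw of UMIs the difference in SOX21 share, KO minus WT, was 0.50 percentage points (-0.20 to 1.15), against 1.05 (0.361 to 1.70) in the first. The 35 SOX17-marked cells held 0 cells with either gene, which allows a share of up to 8.57%, so they do not bound the background of genes this rare. The variance-to-mean ratios of SOX3, 1.08 and 1.13, and of SOX21, 0.99 and 1.18, were close to 1. A single UMI of SOX1 was left in the thinned WT cells and 0 in the 4038 KO cells, which allows a share of up to 0.0743%.

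SOX4 and SOX11 were broadly distributed. SOX4 was found in 96.1% (95.2 to 96.9) of thinned WT cells and 94.2% (93.5 to 94.9) of KO cells, with medians of 4 and 3 UMIs. Its share without thinning, over a set that includes the shallower cells, was 93.8% and 95.5%, in the opposite order, so no order is read from it. SOX11 was found in 55.0% (52.9 to 57.2) and 56.2% (54.6 to 57.7), against 80.9% and 86.2% without thinning. The variance was 2.10 and 1.77 times the mean for SOX4 and 1.34 and 1.20 times for SOX11. Cells with both SOX4 and SOX11 made up 52.9% and 53.0%, and cells with SOX1, SOX2, SOX3 or SOX21 made up 56.2% and 89.0%.

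**Figure D2:**
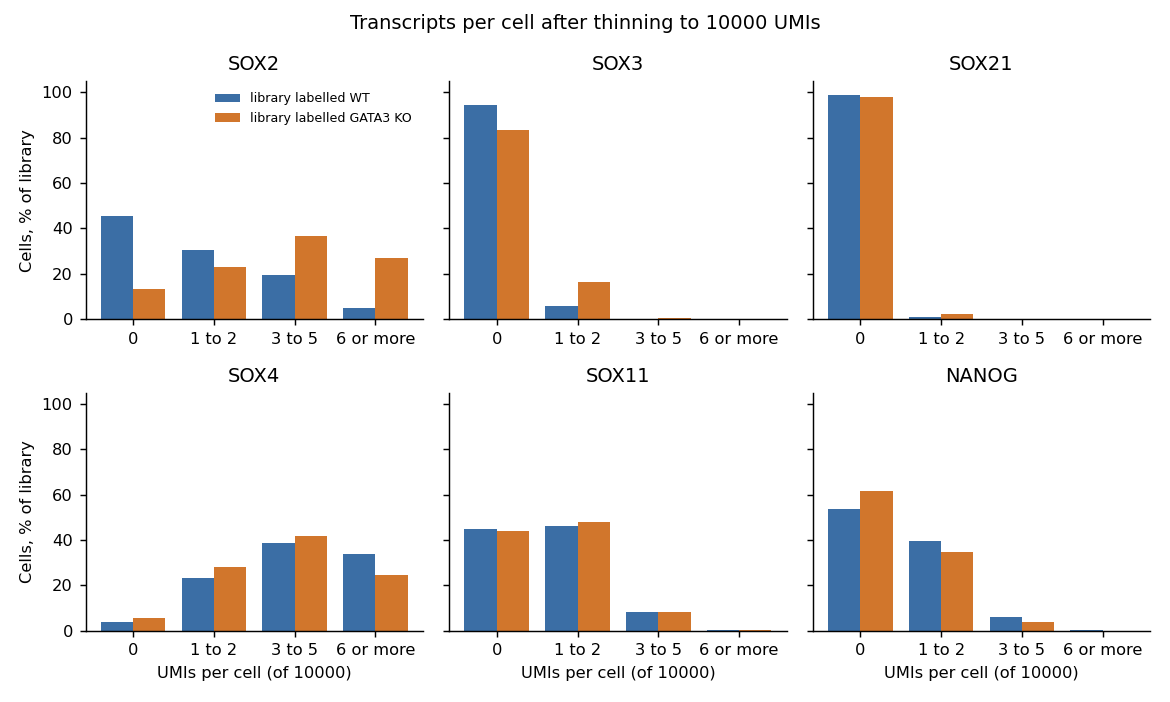
Share of thinned cells (percent of the 2173 WT cells in blue and the 4038 KO cells in orange) with 0, 1 to 2, 3 to 5 and 6 or more UMIs out of 10000, for 5 SOX genes and NANOG. Cells without a SOX2 UMI make up 45.3% of WT and 13.5% of KO cells, SOX3 and SOX21 have no UMI in most cells, and the SOX11 bars nearly coincide.

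Co-expression of SOX2 with the other SOXB genes was read from cells grouped by their thinned SOX2 count. Cells with 3 or more UMIs are called SOX2-high, 530 (24.4%) of the WT cells and 2561 (63.4%) of the KO cells, and cells with 0 are called SOX2-zero, 984 and 544. A SOX2-zero cell is one in which none of 10000 sampled transcripts was SOX2, not one without SOX2. Over all their UMIs these cells still held 31.3 and 57.7 CPM of SOX2.

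SOX21 transcripts were concentrated in SOX2-rich cells of both libraries. In WT cells with 0, 1 to 2, 3 to 5 and 6 or more SOX2 UMIs, SOX21 stood at 0.0894, 0.901, 3.19 and 6.99 CPM. In KO cells it stood at 0.168, 0.944, 2.68 and 3.45 CPM. SOX21 was thus higher at each step up in SOX2. The log2 ratio of SOX2-high over SOX2-zero cells was 2.17 (1.92 to 2.29) in WT cells and 1.78 (1.47 to 1.95) in KO cells. SOX2 was found in 23 of 25 SOX21-positive WT cells and in 89 of 89 such KO cells. The groups span ranges and do not match SOX2 exactly, since its own level was higher in KO cells in each, by log2 ratios of 0.86, 0.57, 0.42 and 0.35. In cells grouped by SOX2 the log2 ratios of SOX21 between libraries were 0.10, 0.03 and -0.19 in the first 3 groups, and their intervals included 0. In the SOX2-zero group, with 4 SOX21 UMIs in WT cells, both levels were far under the added 1 CPM. That holds the ratio near 0, so it does not compare the libraries there. In cells with 6 or more SOX2 UMIs SOX21 was lower in KO cells, at -0.84 (-1.34 to -0.33).

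SOX3 followed SOX2 in one library and not in the other. In WT cells it stood at 3.04, 5.78, 8.74 and 11.2 CPM over the same groups of rising SOX2, a log2 ratio of 1.33 (1.08 to 1.59) between SOX2-high and SOX2-zero cells. In KO cells it stood at 21.3, 20.3, 20.0 and 20.3 CPM, a log2 ratio of -0.08 (-0.21 to 0.06). The intervals of these ratios did not overlap, but the difference was not tested, since there was 1 library each. The level of SOX3 was thus flat across SOX2 in KO cells. Its difference between libraries was largest where SOX2 was lowest, with log2 ratios of 2.46 (2.24 to 2.69), 1.65 (1.45 to 1.87), 1.11 (0.89 to 1.32) and 0.81 (0.42 to 1.22) over the 4 groups. These groups were not matched for the marker classes defined below, and only 187 WT and 119 KO SOX2-zero cells were unmarked. Within streak-marked, amnion-marked and unmarked cells the ratios of SOX3 between libraries were 1.64, 1.56 and 1.23. Among unmarked WT cells, SOX2-high over SOX2-zero gave 0.82 (0.39 to 1.26). The part of cell composition in the pattern of SOX3 over SOX2 was not tested.

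Detection in the same cell gave the same picture. SOX2 and SOX3 were found together in 4.37% (3.55 to 5.32) of thinned WT cells, where the product of their separate shares was 3.15%. In KO cells the share was 14.3% (13.2 to 15.4) and the product 14.5%. SOX2 and SOX21 were found together in 1.06% (0.672 to 1.58) against a product of 0.630% in WT cells, and in 2.20% (1.77 to 2.71) against 1.91% in KO cells. SOX3 and SOX21 shared only 2 WT cells and 12 KO cells, and all of these held SOX2 as well. SOX3 without SOX2 was found in 30 and 100 cells. Pearson's r between SOX2 and SOX3, over log-transformed thinned counts of 2173 and 4038 cells that share a library and a depth, was 0.13 and -0.01.

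The SOXC genes were also higher in SOX2-high cells of both libraries, by smaller ratios than SOX21. SOX11 rose over the SOX2 groups from 72.4 to 138 CPM in WT cells and from 64.1 to 102 CPM in KO cells, with log2 ratios of SOX2-high over SOX2-zero cells of 0.70 (0.63 to 0.77) and 0.58 (0.50 to 0.65). SOX4 was highest in cells with 1 to 2 SOX2 UMIs, at 537 and 439 CPM, and its log2 ratios were 0.27 (0.24 to 0.30) and 0.23 (0.19 to 0.26). In cells without a streak or amnion/trophectoderm marker UMI, a class defined below, these were 0.08 (0.02 to 0.13) and -0.06 (-0.12 to 0.01). Within each of the 4 SOX2 groups, SOX4 and SOX11 were both lower in KO cells, SOX4 by log2 ratios from -0.29 to -0.23 and SOX11 from -0.42 to -0.13.

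**Figure D3:**
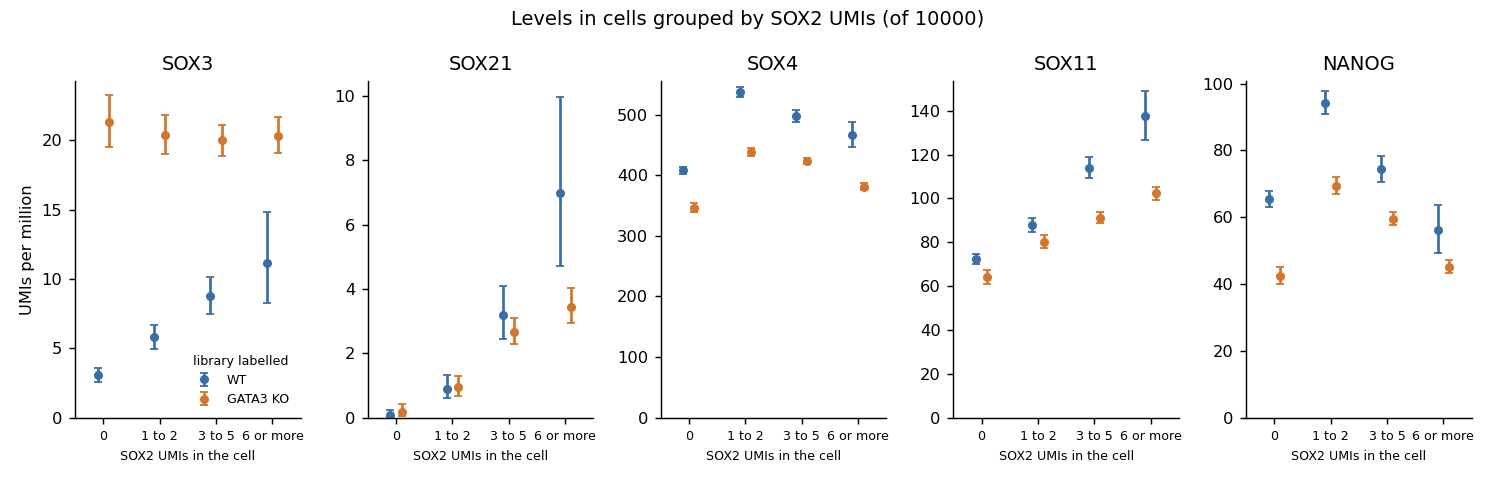
Level in CPM of SOX3, SOX21, SOX4, SOX11 and NANOG in thinned cells grouped by SOX2 UMIs (0, 1 to 2, 3 to 5, 6 or more of 10000), WT cells in blue and KO cells in orange, with exact Poisson 95% intervals. SOX3 climbs with SOX2 in WT cells (3.04 to 11.2) and stays between 20.0 and 21.3 in KO cells, SOX21 climbs in both, and NANOG peaks at 1 to 2 SOX2 UMIs in both.

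NANOG did not rise steadily with SOX2. In WT cells it stood at 65.5, 94.3, 74.4 and 56.1 CPM over the 4 groups of rising SOX2, and in KO cells at 42.4, 69.5, 59.5 and 45.2 CPM. The peak lay at 1 to 2 SOX2 UMIs in each library. The log2 ratio of SOX2-high over SOX2-zero cells was 0.12 (0.03 to 0.20) in WT cells and 0.32 (0.23 to 0.42) in KO cells. With 20000 UMIs per cell, and SOX2-high at 6 or more, they were 0.31 and 0.80. Both turned negative in cells without a streak or amnion/trophectoderm marker UMI, to -0.34 (-0.48 to -0.20) and -0.57 (-0.72 to -0.41). In these cells SOX21 was still higher in SOX2-high cells of both libraries, at 1.92 and 1.28. SOX3 was higher in WT cells, at 0.82 (0.39 to 1.26), and lower in KO cells, at -0.31 (-0.57 to -0.04).

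Read from the side of NANOG, SOX4 and SOX21 differed in opposite directions. In cells with 0, 1 and 2 or more NANOG UMIs, SOX4 stood at 413, 495 and 579 CPM in WT cells and at 375, 430.0 and 502 CPM in KO cells. SOX21 stood at 1.76, 0.889 and 0.319 CPM in WT cells and at 2.54, 1.75 and 0.962 CPM in KO cells. SOX4 thus rose and SOX21 fell with NANOG in both libraries. The log2 ratios of cells with 2 or more over cells with 0 NANOG UMIs were 0.48 (0.45 to 0.52) and 0.42 (0.39 to 0.45) for SOX4, and -1.06 (-1.34 to -0.66) and -0.85 (-1.17 to -0.50) for SOX21. The last group held only 6 SOX21 UMIs in WT cells and 21 in KO cells.

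The summed level of SOX2 was flat across NANOG in WT cells, at 150.5, 147 and 151 CPM, a log2 ratio of 0.00 (-0.06 to 0.06). The share of WT cells with a SOX2 UMI was nevertheless higher with NANOG, at 51.2% (48.3 to 54.1), 54.5% (50.4 to 58.6) and 64.9% (60.1 to 69.5). In the KO library it stood at 395, 407 and 323 CPM, a log2 ratio of -0.29 (-0.33 to -0.25). The share of KO cells was 84.5%, 90.8% and 87.8%. In cells without a marker UMI the ratio of SOX2 was -0.41 in each library. SOX3 had log2 ratios of -0.21 (-0.50 to 0.08) and -0.18 (-0.33 to -0.03). SOX11 had 0.02 (-0.06 to 0.10) and -0.20 (-0.27 to -0.12). In cells without a marker UMI, SOX3 had -0.57 (-0.99 to -0.15) in WT and -0.10 (-0.28 to 0.08) in KO cells. SOX11 had -0.20 (-0.32 to -0.08) and -0.23 (-0.32 to -0.14) there. Cells that were SOX2-high without a NANOG UMI made up 13.9% of WT cells and 39.5% of KO cells, and SOX21 was highest there in both libraries, at 5.01 and 3.63 CPM.

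**Figure D4:**
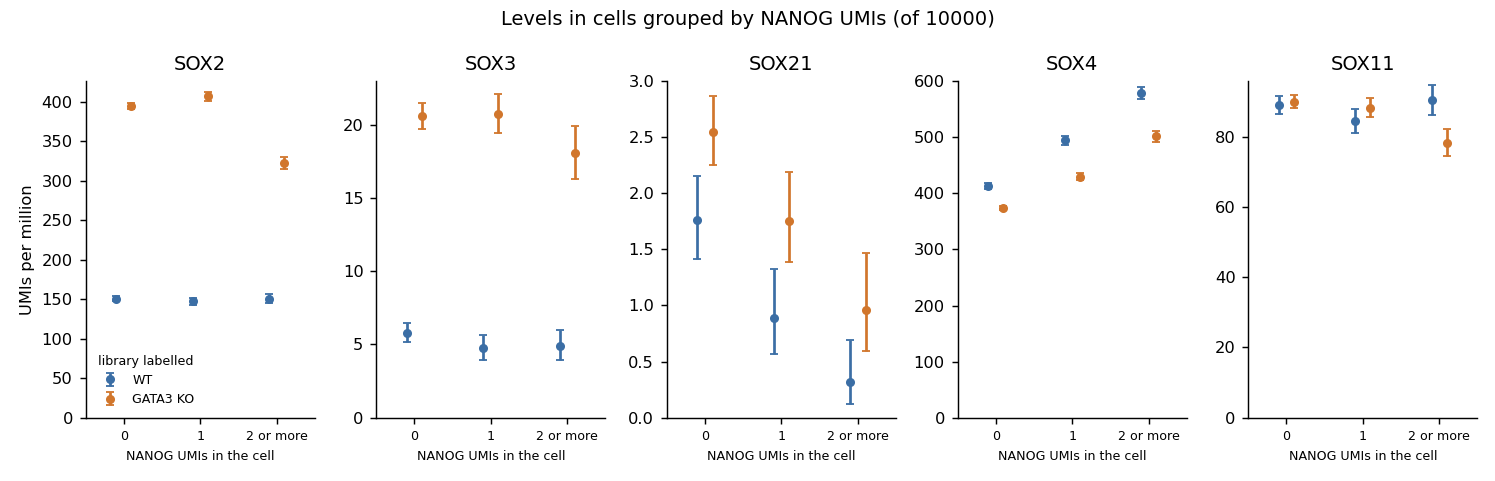
Level in CPM of SOX2, SOX3, SOX21, SOX4 and SOX11 in thinned cells with 0, 1 and 2 or more NANOG UMIs of 10000, WT cells in blue and KO cells in orange, with exact Poisson 95% intervals. SOX4 rises with NANOG (413 to 579 and 375 to 502), SOX21 falls, and SOX2 in WT cells stays between 147 and 151.

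The members were also measured in cells marked by transcripts of other lineages. Cells with 2 or more UMIs over the streak markers and under 2 over the amnion/trophectoderm markers TFAP2A, GATA3, GATA2, HAND1 and ISL1 are called streak-marked, 658 (30.3%) of WT cells and 60 (1.49%) of KO cells. The converse gave 136 (6.26%) and 500 (12.4%) amnion-marked cells, and 956 (44.0%) and 2971 (73.6%) cells had 0 UMIs over both lists. These names refer to the lists alone. The paper counts HAND1 and ISL1 among mesoderm genes, and GATA3 was the gene targeted in the KO clone. Over the amnion/trophectoderm markers, log2 ratios between libraries ran from -0.60 for ISL1 to 1.5 for GATA2. Whether the amnion-marked class holds the same kind of cells in both libraries was not tested. SOX2 stood at 44.5, 25.6 and 257 CPM in streak-marked, amnion-marked and unmarked WT cells. In KO cells it stood at 134, 86.2 and 464 CPM. Of these 3 classes, SOX2 was thus lowest in amnion-marked and highest in unmarked cells of both libraries, and in each it was higher in KO cells.

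Unmarked cells took a larger part of the KO library, and this moves with its SOX2 level. Among unmarked cells alone, the log2 ratio of SOX2 between libraries was 0.85 (0.82 to 0.88), under 2-fold, against 1.37 over all kept cells. In streak-marked and amnion-marked cells it was 1.57 (1.41 to 1.74) and 1.71 (1.48 to 1.95). The part that cell composition has in the difference over all cells was not tested.

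SOX3 was not reduced in amnion-marked cells, unlike SOX2, SOX4, SOX11 and SOX21. It stood at 8.02 CPM in amnion-marked and 7.78 CPM in unmarked WT cells, and at 25.6 and 19.6 CPM in KO cells. The log2 ratio of amnion-marked over unmarked cells was 0.04 (-0.38 to 0.44) and 0.37 (0.24 to 0.50). In streak-marked cells SOX3 was lower, at 1.69 and 7.37 CPM. Between libraries SOX3 was higher in KO cells in all 3 classes, with log2 ratios of 1.64 (0.99 to 2.24), 1.56 (1.17 to 1.97) and 1.23 (1.08 to 1.38) in streak-marked, amnion-marked and unmarked cells.

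SOX21 lay mostly in unmarked cells. In the WT library there were 108 UMIs in unmarked cells, 1 in streak-marked cells and 0 in amnion-marked cells, where 0 UMIs allow up to 0.523 CPM. In the KO library there were 318 UMIs in unmarked, 0 in streak-marked (a limit of 1.05 CPM) and 23 in amnion-marked cells. Unmarked cells also made up most of the KO cells, so these counts alone overstate the contrast. By level, SOX21 stood at 1.04 CPM in amnion-marked and 2.50 CPM in unmarked KO cells, a log2 ratio of -0.78 (-1.10 to -0.43). In unmarked cells its level was 2.53 CPM in WT cells and 2.50 CPM in KO cells, a log2 ratio of -0.01 (-0.25 to 0.22). The higher SOX21 level over all cells was thus not seen within unmarked cells.

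Among the SOXC genes, SOX4 was lower in amnion-marked cells, at 332 and 335 CPM, than in unmarked cells, at 473 and 407 CPM. In streak-marked cells it was at 471 CPM in WT cells and 528 CPM in KO cells. SOX11 was at 70.8, 70.4 and 103 CPM in streak-marked, amnion-marked and unmarked WT cells, and at 53.0, 72.9 and 91.8 CPM in KO cells. Unmarked cells thus had the highest SOX11 level in both libraries, and there it was lower in KO cells, by a log2 ratio of -0.17 (-0.22 to -0.12).

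**Figure D5:**
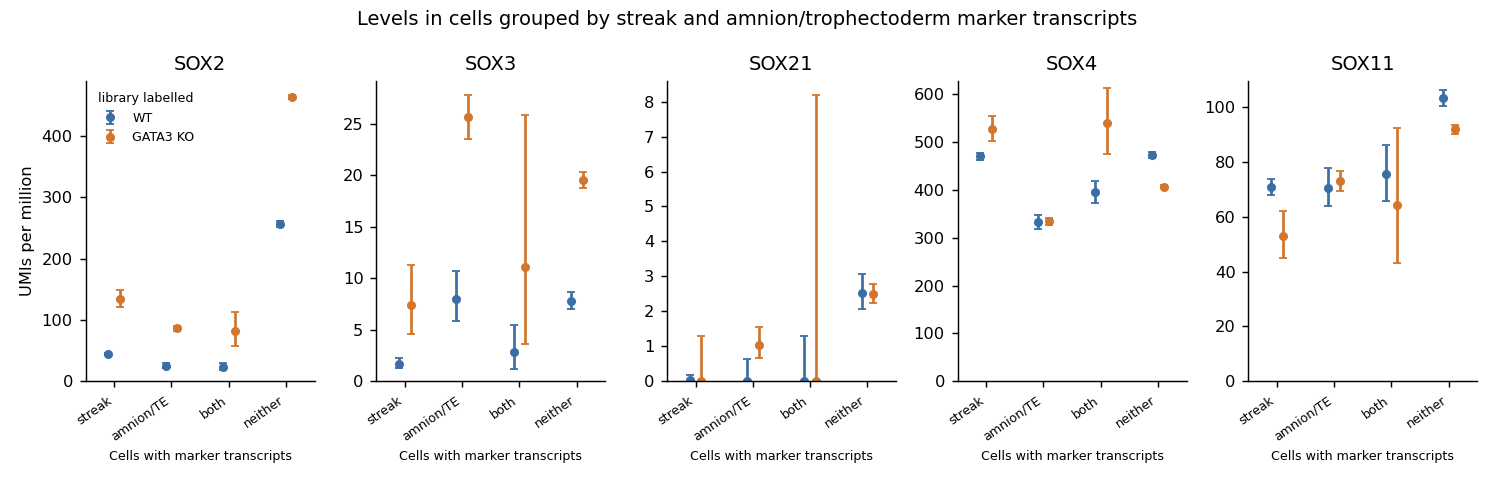
Level in CPM of SOX2, SOX3, SOX21, SOX4 and SOX11 in thinned cells grouped by marker transcripts: streak, amnion/trophectoderm (amnion/TE), both, or neither (0 UMIs over both lists), WT cells in blue and KO cells in orange, with exact Poisson 95% intervals. SOX2 is highest in unmarked cells (257 and 464), SOX3 is as high in amnion-marked as in unmarked cells, and SOX21 in unmarked cells is equal within its intervals (2.53 and 2.50).

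Cells were also grouped by the scarcer SOXB genes. The 125 SOX3-positive WT cells held 245 CPM of SOX2 against 144 CPM in SOX3-negative cells, whereas the values in KO cells were 397 and 387.5 CPM over 676 and 3362 cells. SOX21-positive cells were richer in SOX2 in both libraries, with 393 CPM against 147 CPM in SOX21-negative cells of the WT library, and 567 CPM against 385 CPM in the KO library. They were also poorer in NANOG, with 47.2 CPM against 76.0 CPM, and 37.8 CPM against 56.0 CPM. IRX2, a homeobox factor of the neural ectoderm list, stood at 137 CPM in the 25 SOX21-positive cells and 34.8 CPM in the rest in WT cells, and at 184 and 85.4 CPM in KO cells. In all WT cells with 6 or more SOX2 UMIs, IRX2 stood at 109 CPM and NANOG at 56.1 CPM. High IRX2 and low NANOG were thus not particular to the SOX21-positive WT cells. Of the 89 SOX21-positive KO cells, 14.6% had a UMI of FEZF1, a forebrain factor, against 2.68% of the SOX21-negative cells. In the WT library it was found in 0 of the 25 SOX21-positive cells, which allows a share of up to 12.0%, and in 0.745% of the SOX21-negative cells. FEZF1 was itself higher with SOX2, at 2.35 CPM in SOX2-high and 0.223 CPM in SOX2-zero WT cells. The SOX21-positive KO cells were not compared with KO cells of like SOX2 level. Whether the FEZF1 share is particular to them was not tested. OTX2, of the same list, was found in 12% (2.55 to 31.2) of SOX21-positive and 10.85% of SOX21-negative WT cells.

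Genes whose cell-to-cell pattern was most like that of a member were ranked by Pearson's r over log-transformed thinned counts, among 6544 genes found in at least 10% of cells of both libraries. SOX1, SOX3 and SOX21 fell under that share. SOX2 was most like TERF1, a telomere-binding protein, with r of 0.61 in WT cells and 0.56 in KO cells, then SFRP1, a secreted WNT inhibitor, with 0.55 and 0.53, and DNMT3B, a DNA methyltransferase, with 0.45 and 0.42. It was least like NTS, the neurotensin precursor, with -0.60 and -0.57, then GSTO1, a glutathione transferase, with -0.56 and -0.52, and WLS, a carrier of WNT ligands, with -0.42 and -0.52. Values for the SOXC genes were much smaller. SOX4 was most like AK4, VSNL1 and L1TD1, with r from 0.15 to 0.26, and least like CLDN10, TMEM54 and RHOBTB3, with r from -0.17 to -0.13. SOX11 was most like IRX2, SOX2 and SFRP1, with r from 0.14 to 0.22, and least like FABP5, TUBB2A and KRT18, with r from -0.25 to -0.13. These are descriptions across cells of 1 library each, not tests.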

How the data were processed

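Transcripts had been counted in single cells of 1 library labelled WT and 1 labelled GATA3 KO, and groups were taken from these labels only. The protocol text of the first gives 1 h of BMP4, but its title and recorded duration give 48 h, which was used. The deposited files hold raw UMI counts per gene and cell. The authors had counted 10x Genomics 3′ v3 reads with Cell Ranger 3.0.2 on GRCh38. Such counts sample the 3′ end of a transcript.

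The members and gene lists were chosen with earlier results of these data known. Named genes were the 6 members, NANOG, POU5F1 and GATA3. Of each list the 2 highest and 2 lowest log2 ratios were named, where the library with more held 1 CPM or above. For each member found in at least 10% of thinned cells of both libraries, the 3 most and 3 least correlated genes were named, ranked by the weaker of the 2 libraries, with no mitochondrial or ribosomal protein gene. PAX6, FEZF1, SOX7, SOX12, SOX14 and the IRX2 and OTX2 values of SOX21-positive cells were chosen after they were seen.

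Cells over either limit of the study, 7500 genes or 25% mitochondrial counts, were removed, and no cell failed both. Scrublet (scanpy 1.11.5) called 1 and 2 doublets, none among kept cells, too few for a working caller, so doublets were kept, and the highest scores were removed only as an alternative. Levels carry exact Poisson intervals, shares exact Clopper-Pearson intervals, and log2 ratios (pseudocount 1 CPM) the exact binomial interval of both counts. That pseudocount understates ratios of scarce genes. A count of 0 is given with a limit of 3 counts. In groups of thinned cells, CPM use all UMIs of those cells, drawn ones included. The scripts were tested on simulated counts. TMM factors came from edgeR 4.0.16 and positions from GENCODE 44.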

Additional observations from a re-analysis of the deposited data

How the results depend on the processing

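Of 136 values recomputed under an alternative, 91 stayed within the counting interval of the reported value (or, for counts of genes, within 1.5 times of it), 41 left it and 4 changed sign against a value whose interval excluded 0. Over all deposited cells the log2 ratio between libraries was 1.34 for SOX2, 1.56 for SOX3 and -0.0497 for SOX11. With a pseudocount of 0.1 CPM it was 0.10 for SOX1, 1.91 for SOX3 and 0.75 for SOX21. As a mean of per-cell CPM it was 1.62 for SOX3, 0.92 for SOX21, -0.23 for SOX4 and 0.15 for SOX11. TMM scaling moved no member out of its interval. The difference in share of cells, KO minus WT in percentage points, was 31.8 for SOX2, 11.0 for SOX3 and 1.05 for SOX21. It was 24.6 for SOX2 and 19.0 for SOX3 with 20000 UMIs, 23.1, 26.7 and 2.80 for SOX2, SOX3 and SOX21 without thinning, and 39.9, 2.11 and 0.149 with at least 2 UMIs. That of SOX4, -1.86, became 1.72 without thinning, with the shallower cells included.

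Between SOX2-high and SOX2-zero cells, 20000 UMIs with SOX2-high at 6 or more gave 2.34 for SOX21 in WT cells, and 0.31 and 0.80 for NANOG in WT and KO cells. Over all deposited cells NANOG stood at 0.21 in WT and 0.21 in KO cells. Cells with 0 marker UMIs, an alternative chosen after seeing the data, gave 0.82 and -0.31 for SOX3, 1.92 and 1.28 for SOX21, -0.34 and -0.57 for NANOG, and -0.0567 for SOX4 in KO cells. The cause of these shifts was not tested. Among genes of at least 20 CPM, 133 were 2-fold higher and 110 lower, against 279 and 307 of at least 1 CPM.

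No paired analysis was possible because each label has 1 library. Counts of 3 and 7 UMIs limit SOX1, and shares of SOX3 and SOX21 depend on the depth to which cells are thinned.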
